A study of Homo sapiens with 12 samples.

Results

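RNA of 786-O cells with shRNAs against YAP and TAZ was compared with RNA of the parental line. 786-O is an established human kidney cancer line of the clear cell type. Its VHL gene is inactive, so HIF proteins are not marked for destruction when oxygen is present, and it is known for relying on HIF2A. The comparison used the 3 libraries labelled as YAP/TAZ knockdown (shYAPTAZ) and the 3 labelled as parental control, 6 of the 12 libraries measured, with each library's group taken from its labels. The other 6, from lines with shRNAs against HIF2A (shHIF2A) and against JUN, JUNB and JUND (shJUNs), shared the estimate of the spread and served for direct comparisons with shYAPTAZ. All 4 lines, the parental one included, had been kept in doxycycline, the inducer of the shRNAs, for 72 hours. RNA was read by BRB-seq, which barcodes each sample and sequences the 3' ends of polyadenylated RNA. Levels are given as CPM, a gene's count for each 1000000 counts of its library, which compare a gene between libraries and not one gene with another.

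The parental libraries held 2885287, 3603339 and 3559731 counts (replicates 1 to 3), and the shYAPTAZ libraries 2272459, 3172106 and 4127139, so that 3 counts in a shYAPTAZ library are 0.727 to 1.32 CPM. The labels call the replicates technical, so p-values here measure only the spread between these libraries. A control shRNA line is not part of the libraries analysed, and the sources used here do not say how many clones or shRNA sequences stood behind shYAPTAZ. Derived lines had been selected with antibiotics (puromycin, blasticidin or hygromycin, by the number of genes silenced), per the labels. Silencing and any other difference between the lines cannot be told apart. The labels name no sequencing batch. Genes were tested with edgeR's quasi-likelihood test with Benjamini-Hochberg adjustment over all 12301 genes tested, and every adjusted p on a gene comes from it. Markers of a renal cell were counted in all 6 libraries. PAX8, a renal lineage factor named after its values were seen, was 79.6, 93.6 and 93.6 against 113, 90.7 and 99.8 CPM and did not pass the test (adjusted p = 0.472), and the 27 renal markers, 8 of them without a count in any of the 6, summed to 699 to 856 CPM in parental and 962 to 1258 CPM in shYAPTAZ libraries. Of 15 blood cell markers 10 had no count in any of the 6 libraries, and the summed level was 0.833 to 4.16 CPM in parental and 2.64 to 8.24 CPM in shYAPTAZ libraries. Of 11 endothelial markers 5 had no count, with sums of 0.278 to 3.12 and 1.58 to 4.85 CPM.

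YAP and TAZ are coactivators that cannot bind DNA themselves. When the Hippo kinases are inactive they enter the nucleus and join the TEAD factors at genes of growth, adhesion and the cytoskeleton. Some of the genes they switch on, among them LATS2 and AMOTL2, encode inhibitors of YAP and TAZ. In kidney cancer cells without VHL, the constantly active HIF2A drives genes of glucose uptake, blood vessel growth and the cell cycle.

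Both silenced genes were lower in shYAPTAZ. YAP1 (ENSG00000137693, chromosome 11, 102110447 to 102233424, hg38) was 66.7, 58.2 and 71.2 CPM in the parental libraries and 21.8, 10.2 and 10.4 CPM in the shYAPTAZ libraries, so every shYAPTAZ library lay below every parental one. YAP1 was 4.78-fold lower (log2 change -2.26 ± 0.26 SE, adjusted p = 1.2e-06). WWTR1 encodes TAZ (ENSG00000018408, chromosome 3, 149517235 to 149736714) and was 239, 325 and 369 CPM in the parental libraries and 146, 143 and 169 CPM in the shYAPTAZ libraries, again without overlap, and 2.04-fold lower (log2 change -1.03 ± 0.15 SE, adjusted p = 2.23e-05). In the other lines YAP1 stood at 46.1 ± 2.5 CPM in shHIF2A and 57.1 ± 7.69 CPM in shJUNs, and WWTR1 at 504 ± 25.9 CPM in shHIF2A and 441 ± 28.8 CPM in shJUNs. Both genes were lower in shYAPTAZ than in shHIF2A (adjusted p = 4.89e-05 and 3.3e-08) and than in shJUNs (adjusted p = 7.31e-06 and 1.81e-07).

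Of the 4 TEAD genes, the DNA-binding partners of YAP and TAZ, TEAD1 was lower in shYAPTAZ. TEAD1 (ENSG00000187079, chromosome 11, 12674421 to 12944737) was 79.6, 92.5 and 115 CPM in the parental libraries and 64, 53.5 and 41.9 CPM in the shYAPTAZ libraries, with no overlap, and 1.81-fold lower (log2 change -0.86 ± 0.20 SE, adjusted p = 0.00296). TEAD3 (5.58, 4.5 and 11.6 against 2.72, 10.8 and 0.964 CPM, adjusted p = 0.568) and TEAD4 (28.6, 17.4 and 18.7 against 15.9, 21 and 11.3 CPM, adjusted p = 0.411) overlapped between the groups, and TEAD2, with 0, 1 and 0 counts in the parental and 12, 16 and 0 in the shYAPTAZ libraries, did not pass the filter on low counts. The list of TEAD and VGLL genes, which held no higher call, held 1 in 8 of 22 alternatives, among them the one without that filter. Without shYAPTAZ replicate 2 the log2 change of TEAD3 was -2.06 in place of -0.58, still short of the threshold.

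**Figure D1:**
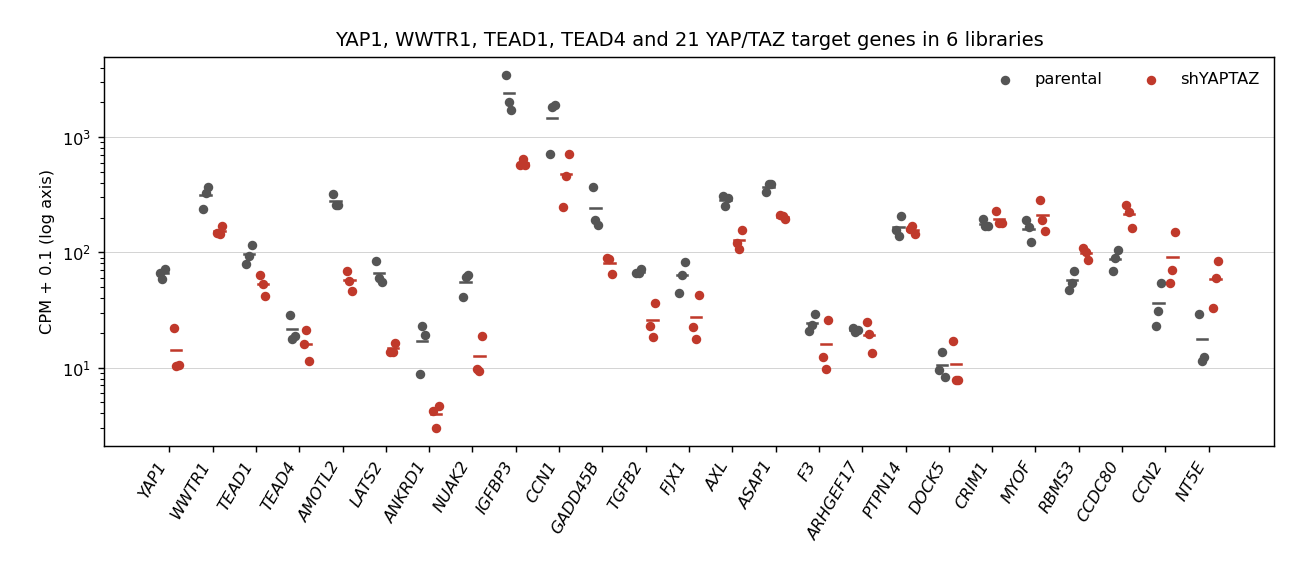
Points are CPM + 0.1 of single libraries on a log axis, 3 parental (grey) and 3 shYAPTAZ (red) for each gene, and short lines are group means; the 21 target genes run from the lowest to the highest log2 change. YAP1 and WWTR1 lie apart in the 2 groups, and the targets on the left are lower and those on the far right higher in shYAPTAZ.

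Known YAP/TAZ targets moved mostly but not only downward. Of 20 targets tested outside chromosomes 13 and 14, 10 were lower and 4 higher at an adjusted p under 0.05, against 12.3% of all genes tested there that were lower and 12.1% that were higher. Their median log2 change was -0.72, against 0.01 over all genes outside the 2 chromosomes. AMOTL2, an angiomotin that holds YAP outside the nucleus, was 321, 256 and 259 CPM in the parental libraries and 69, 56 and 46.3 CPM in the shYAPTAZ libraries. The groups did not overlap, and AMOTL2 was 4.91-fold lower (log2 change -2.30 ± 0.20 SE, adjusted p = 1.67e-08). It was also below parental in shHIF2A (117 ± 29.2 CPM, adjusted p = 7.46e-05) and shJUNs (108 ± 13.3 CPM, adjusted p = 1.98e-05). AMOTL2 was lower in shYAPTAZ than in either line (adjusted p = 0.000534 and 0.00185). NUAK2, a kinase, was 40.8, 61.3 and 63.3 CPM in the parental libraries and 9.53, 9.23 and 18.6 CPM in the shYAPTAZ libraries, 4.33-fold lower (adjusted p = 3.18e-05). IGFBP3, a secreted binder of insulin-like growth factors, was 3453, 2009 and 1697 CPM in the parental libraries and 572, 637 and 566 CPM in the shYAPTAZ libraries, 4.03-fold lower (adjusted p = 1.21e-06). In these genes the shYAPTAZ libraries were all the lowest. AXL, a receptor tyrosine kinase, was 2.22-fold lower (adjusted p = 7.52e-06) and GADD45B, a stress-response gene, 3.01-fold lower (adjusted p = 2.92e-05). LATS2, a Hippo kinase and itself a target, lies on chromosome 13 and was 83.8, 59.6 and 54.8 against 13.6, 13.7 and 16.4 CPM, 4.49-fold lower (adjusted p = 9.86e-07).

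The letters GGAATG, the core that TEAD factors bind and the 1 motif searched, on both strands (CATTCC on the other), occur in 14% of 27305 RefSeq promoter windows of 300 bases (250 before and 50 after the start, GRCh38.p14). Of the 21 tested targets 16 had a window there and 6 held the letters. Of these 6, ANKRD1, LATS2, NUAK2 and TGFB2 were lower, CCN2 was higher and PTPN14 did not pass (adjusted p = 0.753). PTPN14 and TGFB2 are named for their motif after the values were seen. TGFB2, a TGF-beta ligand, was 66.7, 65.5 and 71.5 against 22.7, 18.5 and 36.1 CPM, 2.6-fold lower (adjusted p = 0.000103). The 250 bases before the start are printed here for ANKRD1, NUAK2 and CCN2, the 3 that hold the letters more than once, with the motif in capitals, each from the minus strand of its chromosome, chr10:90921088-90921337 for ANKRD1, chr1:205321746-205321995 for NUAK2 and chr6:131951373-131951622 for CCN2.
ANKRD1: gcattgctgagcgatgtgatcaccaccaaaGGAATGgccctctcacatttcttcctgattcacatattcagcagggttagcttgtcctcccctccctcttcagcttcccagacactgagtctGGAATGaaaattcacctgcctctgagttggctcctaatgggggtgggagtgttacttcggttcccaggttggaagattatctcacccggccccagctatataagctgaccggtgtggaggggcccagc
NUAK2: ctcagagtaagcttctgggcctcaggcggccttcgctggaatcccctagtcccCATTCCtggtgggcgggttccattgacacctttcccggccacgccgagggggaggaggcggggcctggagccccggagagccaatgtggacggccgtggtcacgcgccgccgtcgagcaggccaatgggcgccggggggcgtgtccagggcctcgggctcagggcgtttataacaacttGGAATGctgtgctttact
CCN2: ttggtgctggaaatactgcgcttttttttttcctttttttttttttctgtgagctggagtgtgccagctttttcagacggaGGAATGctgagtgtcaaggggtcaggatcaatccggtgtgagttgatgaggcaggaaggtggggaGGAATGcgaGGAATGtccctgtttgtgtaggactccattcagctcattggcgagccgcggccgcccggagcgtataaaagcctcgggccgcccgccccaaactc
The motif starts at -220 and -128 from the ANKRD1 start, at -197 and -18 in NUAK2, and at -169, -104 and -95 in CCN2. A match describes the sequence only, and binding was not measured.

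ANKRD1, a muscle ankyrin protein widely used as a readout of YAP, was 8.73, 23.1 and 19.2 CPM in the parental libraries and 4.09, 2.87 and 4.58 CPM in the shYAPTAZ libraries, and 4.39-fold lower (log2 change -2.14 ± 0.51 SE, adjusted p = 0.0034); it is named after its values were seen. NUAK2, given above, fell by a similar factor. CCN2 (ENSG00000118523, chromosome 6, 131948176 to 131951372), the matricellular protein also called CTGF and likewise a common YAP readout, was 22.7, 30.6 and 54.3 CPM in the parental libraries and 53.6, 69.7 and 149 CPM in the shYAPTAZ libraries. It was 2.54-fold higher (log2 change 1.35 ± 0.34 SE, adjusted p = 0.00769), although shYAPTAZ replicate 1 lay just below the highest parental library. Its relative CCN1, chosen after its values were seen, was 705, 1819 and 1893 against 249, 460.1 and 713 CPM, 3.1-fold lower (adjusted p = 0.0192). Leaving out parental replicate 2, parental replicate 3 or shYAPTAZ replicate 2 ended that call (adjusted p = 0.0595, 0.0586 and 0.0606).

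The 4 targets that rose were CCN2, CCDC80, NT5E and RBMS3. CCDC80, a matrix-associated protein, was 69.1, 89.97 and 105 CPM in the parental libraries and 255, 222 and 161 CPM in the shYAPTAZ libraries, 2.41-fold higher (adjusted p = 3.6e-05). NT5E, the surface enzyme CD73, was 29, 11.2 and 12.2 against 32.7, 60.2 and 83.6 CPM, 3.43-fold higher (adjusted p = 0.00289). RBMS3, an RNA-binding protein, was 1.73-fold higher (adjusted p = 0.0168), a call that did not survive leaving out parental replicate 1 (adjusted p = 0.0715), parental replicate 2 (0.0586) or shYAPTAZ replicate 2 (0.0517). Compared directly, 8 of the 21 targets were lower in shYAPTAZ than in shHIF2A and 3 higher, against 8.72% of all genes lower and 9.71% higher. Against shJUNs, 8 were lower and 4 higher, where 8.27% and 7.87% of all genes were. Compared with parental cells, 7 of the 21 were lower and 4 higher in shHIF2A, where 8.8% and 9.84% of all genes were. In shJUNs 7 were lower and 1 higher than in parental cells, where 8.93% and 10.3% of all genes were.

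The Hippo kinases and their regulators did not move as a group. Of 23 tested outside chromosomes 13 and 14, 3 were lower (AMOTL2, WWC1 and WWC2), 3 were higher (TAOK2, MOB1B and WTIP) and 17 did not pass. Both counts were near the shares of all genes there, 12.3% lower and 12.1% higher. The median log2 change was -0.09. WWC2 is named after its values were seen, and its call ended in 12 of 22 alternatives. WWC1, also called KIBRA, an upstream activator of the pathway, was 63.2, 103 and 85.6 CPM in the parental libraries and 23.2, 33.7 and 28 CPM in the shYAPTAZ libraries, 2.96-fold lower (adjusted p = 6.62e-06). It was also lower than in shHIF2A and shJUNs (adjusted p = 5.61e-06 and 2.24e-05). TAOK2, a kinase upstream of the Hippo kinases, was 16.4, 20.2 and 18.9 against 47.2, 35.3 and 29.2 CPM, 1.99-fold higher (adjusted p = 0.00524). Only 1 of the 3 higher calls was left without parental replicate 2 or parental replicate 3. On chromosomes 13 and 14, LATS2 was lower, and AJUBA, FRMD6 and SAV1 did not pass.

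Across the genome outside chromosomes 13 and 14, 11670 genes were tested, of which 1408 (12.1%) were higher and 1433 (12.3%) lower in shYAPTAZ. Of these, 837 (7.17%) were at least 2-fold higher and 799 (6.85%) at least 2-fold lower. In 35.2% of the genes tested there the 3 and 3 libraries did not overlap. Counts of the gene lists below stand beside the shares of 12.1% higher and 12.3% lower. Some genes were counted in only 1 of the groups: 40 genes called higher had no count in any parental library, and 28 called lower had none in any shYAPTAZ library. For those genes a fold is a lower bound, with the empty group set to 3 counts in all, and with 1 to 3 counts a ratio is given with its 95% exact binomial interval, which covers counting error only.

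**Figure D2:**
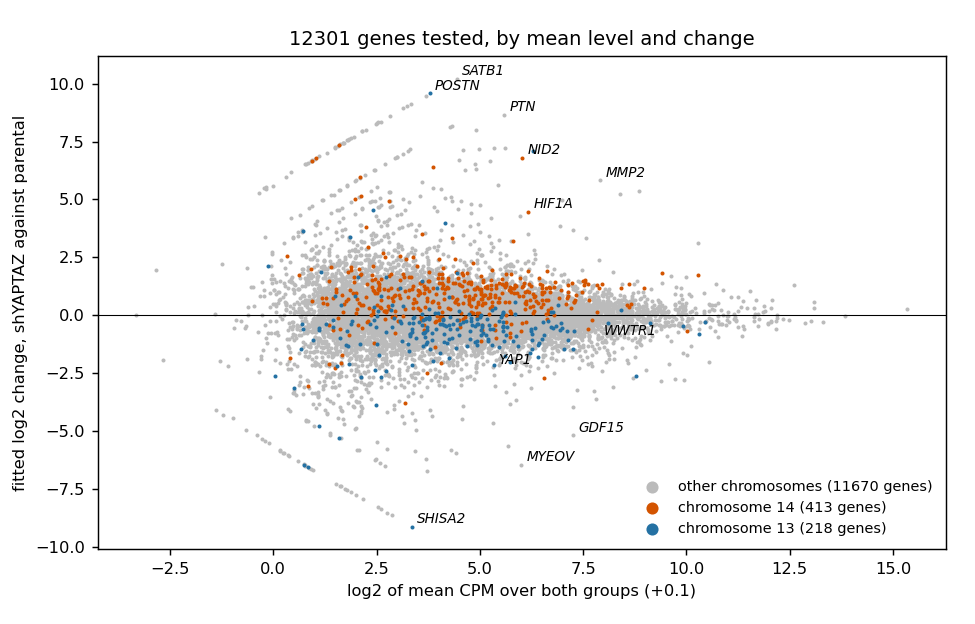
Each point is 1 of 12301 genes, with the log2 of its mean CPM over both groups on the x axis and its fitted log2 change (shYAPTAZ against parental) on the y axis; chromosome 14 is orange and chromosome 13 blue. Chromosome 14 lies mostly above 0 and chromosome 13 mostly below, and the straight diagonals hold genes with no count, or nearly none, in 1 group, whose fitted change depends on the prior count.

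The largest rises were of genes with no or nearly no parental counts. SATB1, a chromatin organiser, was 0, 0 and 0 CPM in the parental libraries and 65.4, 36.6 and 27.7 CPM in the shYAPTAZ libraries, at least 131-fold higher (adjusted p = 1.67e-08). PTN, the secreted growth factor pleiotrophin (ENSG00000105894, chromosome 7, 137227341 to 137343774), was 0.349, 0 and 0.283 CPM in the parental libraries and 94.9, 97.7 and 93.5 CPM in the shYAPTAZ libraries, higher by a ratio of 474 (95% interval 131 to 3922, adjusted p = 4.61e-10). The 3 shYAPTAZ libraries agreed closely for PTN and differed more than 2-fold for SATB1. HS6ST2, a heparan sulfate sulfotransferase, was at least 85-fold higher (adjusted p = 2.03e-07). FERMT1, the integrin activator kindlin-1, was at least 61.5-fold higher (adjusted p = 3.76e-06), and GRIN2A, an NMDA receptor subunit, at least 64.3-fold higher (adjusted p = 2.55e-05). BAALC was at least 55.6-fold higher (adjusted p = 0.000206) and MAGEA3, a cancer-testis antigen, at least 50.7-fold higher (adjusted p = 7.37e-05). CCL26, a chemokine, was 25.9, 6.37 and 3.86 CPM in shYAPTAZ and uncounted in parental cells, at least 32.5-fold higher (adjusted p = 0.000571), with most of the signal in replicate 1. All 8 were higher than in shHIF2A (adjusted p of at most 0.0206) and in shJUNs (at most 0.0173).

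Among the largest falls, MYEOV, a gene of the chromosome 11 amplicon of myeloma, was 148, 112 and 118 CPM in the parental libraries and 1.36, 2.55 and 0.482 CPM in the shYAPTAZ libraries, 88.4-fold lower (log2 change -6.47 ± 0.52 SE, adjusted p = 1.92e-08). Without shYAPTAZ replicate 2 its log2 change was -7.24. It stood at 1.66 ± 1.47 CPM in shHIF2A and 5.45 ± 2.44 CPM in shJUNs, so it was low in all 3 knockdown lines. SLC16A4, a monocarboxylate transporter, was 19.9, 12.4 and 10.7 CPM in the parental libraries and 0, 0 and 0 CPM in the shYAPTAZ libraries, at least 44.2-fold lower (adjusted p = 1.53e-07). In the other lines SLC16A4 was not low, at 22.8 ± 4.94 CPM in shHIF2A and 26.6 ± 1.97 CPM in shJUNs. PTCHD4, a patched-domain protein, was lower by a ratio of 122 (95% interval 33.3 to 1009, adjusted p = 4.84e-07), ECHDC3 lower by a ratio of 109 (95% interval 19.1 to 4329, adjusted p = 3.49e-05) and CNR1, the cannabinoid receptor, lower by a ratio of 99.1 (95% interval 17.4 to 3953, adjusted p = 0.000207). PSG5, a pregnancy-specific glycoprotein whose family shares near-identical sequence, was at least 35.9-fold lower (adjusted p = 9.55e-06). SNTG1 was at least 36.2-fold lower (adjusted p = 0.000121) and the noncoding RNA DGCR5 at least 41.9-fold lower (adjusted p = 6.04e-05). SNTG1 had no count in shJUNs either, and its direct comparison with shJUNs did not pass (adjusted p = 1).

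By CPM gained or lost, abundant genes led. TMSB10, an actin-sequestering thymosin, was 6328, 7192 and 7303 CPM in the parental libraries and 11269.9, 10522 and 9543 CPM in the shYAPTAZ libraries, 1.5-fold higher (adjusted p = 2.17e-05). RPS4X, a ribosomal protein of the small subunit, was 2012, 1926 and 1859.6 against 4551, 3907 and 3669.5 CPM, 2.09-fold higher (adjusted p = 2.62e-08), and was higher than in shHIF2A and shJUNs as well (adjusted p = 2.3e-08 and 2.28e-09). NEFL, a neurofilament, was 160.2, 289.9 and 320.0 against 2343, 2438 and 1899.8 CPM, 8.66-fold higher (adjusted p = 1.59e-08). Of the genes that passed, ACTB, beta-actin, gained most CPM, at 1998, 3971 and 4739.8 against 5438, 9662 and 11601 CPM, but the spread was wide and its call ended without shYAPTAZ replicate 2 (adjusted p = 0.0501) or replicate 3 (0.0632). EIF1, a translation initiation factor, was 4058, 3224 and 2900.0 against 1775, 1809 and 1918 CPM, 1.85-fold lower (adjusted p = 3.95e-06). MT-CO3, a subunit of cytochrome c oxidase, and RPLP1, a ribosomal stalk protein, were 1.24-fold and 1.52-fold lower (adjusted p = 0.00555 and 1.99e-05).

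Genes on chromosomes 13 and 14 shifted as whole chromosomes. On chromosome 14, 181 of 413 genes tested (43.8%) were higher and 13 (3.15%) lower, with a median log2 change of 0.89 and 85.2% of genes above 0. On chromosome 13, 68 of 218 (31.2%) were lower and 10 (4.59%) higher, with a median of -0.52 and 19.3% of genes above 0, against 50.7% outside the 2 chromosomes. Chromosome 14 took 1.44%, 1.52% and 1.57% of the counts of the parental libraries and 2.57%, 2.55% and 2.73% of the shYAPTAZ ones, a ratio of 1.73. Chromosome 13 took 1.42%, 1.39% and 1.36% against 0.943%, 0.940% and 0.915%, a ratio of 0.672. For both shares the groups did not overlap, and the exact two-sided permutation p was 0.1, the smallest that 3 against 3 libraries allow. The 2 chromosomes had been set apart before these shares were computed, and this p adds no support beyond the lack of overlap. Bins of 10 Mb with at least 20 genes were all on one side, 7 of 7 above 0 on chromosome 14 (medians 0.76 to 1.09) and 5 of 5 below 0 on chromosome 13 (-0.90 to -0.29). Against parental cells, the medians of chromosomes 13 and 14 were 0.03 and -0.01 in shHIF2A and -0.14 and 0.39 in shJUNs. A change in copy number was not measured, and silencing and a difference between lines cannot be told apart here.

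**Figure D3:**
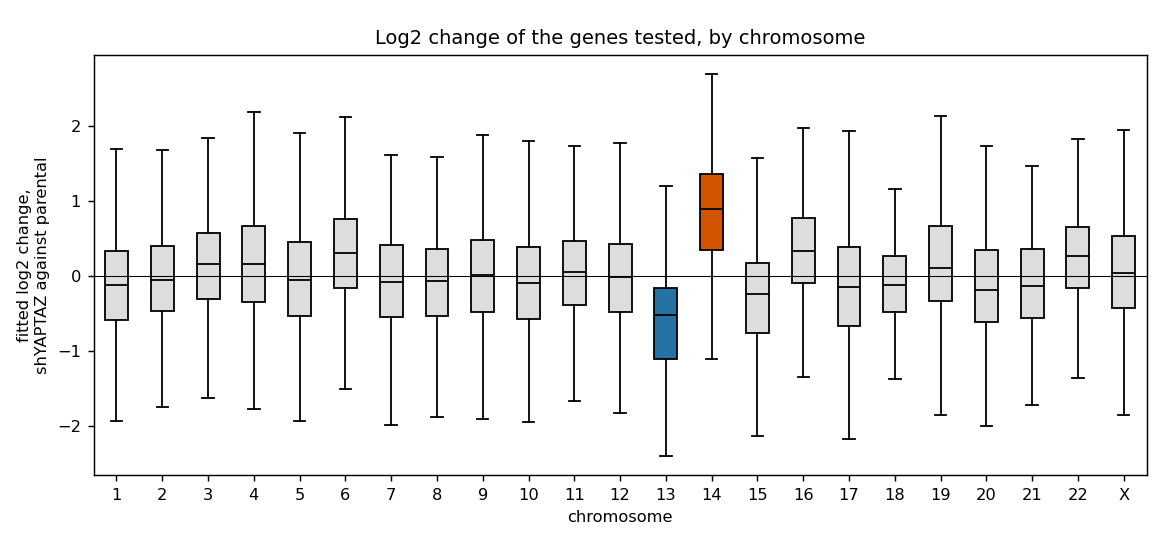
Boxes give the median and quartiles of the fitted log2 change (shYAPTAZ against parental) of the genes tested on each chromosome, whiskers reach 1.5 times the interquartile range, and points beyond are not drawn. Chromosome 14 (orange) sits highest, with a median of 0.89, and chromosome 13 (blue) lowest, at -0.52.

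The largest changes on the 2 chromosomes went well beyond the shift of their neighbours. HIF1A (ENSG00000100644, chromosome 14, 61695513 to 61748259), the HIF subunit whose protein 786-O cells are known to lack, was 4.89, 4.78 and 8.76 CPM in the parental libraries and 150.3, 147 and 114 CPM in the shYAPTAZ libraries. All 3 shYAPTAZ libraries lay far above all parental ones, and HIF1A was 22-fold higher (log2 change 4.46 ± 0.28 SE, adjusted p = 1.25e-10). It stood at 11.5 ± 2.65 CPM in shHIF2A and 6.98 ± 0.93 CPM in shJUNs. NID2, a basement membrane protein on chromosome 14, was 1.05, 0.562 and 1.7 against 197, 118 and 68.7 CPM, 112-fold higher (adjusted p = 1.19e-09). PAPLN, also on chromosome 14, was higher by a ratio of 81.8 (95% interval 27.7 to 399.7, adjusted p = 1.4e-06), with 25.7 ± 10.8 CPM in shJUNs, where the difference from shYAPTAZ did not pass (adjusted p = 0.892).

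On chromosome 13, against the direction of its other genes, DNAJC15, a mitochondrial cochaperone, was 0.349, 2.25 and 0.565 against 158, 181 and 128 CPM, 137-fold higher (adjusted p = 6.38e-10). Without parental replicate 2 its log2 change was 8.27 in place of 7.10. POSTN, the matrix protein periostin, was 20.4, 36.6 and 25.1 CPM in shYAPTAZ and uncounted in parental cells, at least 92.3-fold higher (adjusted p = 1.79e-06). SHISA2 was 11.9, 19.96 and 28.5 CPM in the parental libraries and 0, 0 and 0 CPM in the shYAPTAZ libraries, at least 65.5-fold lower (adjusted p = 1.11e-07). DCUN1D2 was 6.3-fold lower (adjusted p = 0.00118). On chromosome 14, MDGA2 was 17.1, 17.4 and 15 against 4.54, 0 and 0 CPM, 13.8-fold lower (adjusted p = 0.00328), and its log2 change ranged from -8.89 to -3.04 with single libraries left out, the widest change coming without shYAPTAZ replicate 1. EGLN3, a prolyl hydroxylase that marks HIF for VHL and is itself a HIF target, was 237, 142 and 108 against 47.7, 18.8 and 10.4 CPM, 6.6-fold lower (adjusted p = 0.000366), with a log2 change of -3.49 without shYAPTAZ replicate 1.

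Of 27 HIF2A and hypoxia targets tested outside chromosomes 13 and 14, 16 were lower in shYAPTAZ, 4 higher and 7 did not pass. Of all genes tested there 12.3% were lower and 12.1% higher. The median log2 change of the 27 was -1.33, and 16 were lower under each of the 22 alternatives tried. SLC2A1, the glucose transporter GLUT1, was 1792, 1606 and 1323 CPM in the parental libraries and 568, 476 and 405 CPM in the shYAPTAZ libraries, 3.26-fold lower (log2 change -1.70 ± 0.13 SE, adjusted p = 3.28e-09). CCND1, cyclin D1, was 967, 654 and 547 CPM in the parental libraries and 106, 88.5 and 135 CPM in the shYAPTAZ libraries, 6.56-fold lower (adjusted p = 2.2e-06). SCARB1, the receptor for high-density lipoprotein, was 144, 149.6 and 141 against 33.6, 49.7 and 38.8 CPM, 3.54-fold lower (adjusted p = 1.25e-07). No library of one group overlapped the other in these 3 genes. TGFA, an EGF receptor ligand, was 583, 321 and 287 against 44, 19.4 and 58.1 CPM, 9.73-fold lower (adjusted p = 2.33e-05), and FZD8, a Wnt receptor, 79.2, 44.7 and 27.7 against 6.81, 10.5 and 5.3 CPM, 6.69-fold lower (adjusted p = 0.000276). The 4 that rose were BHLHE41 (2.5-fold higher, adjusted p = 0.000619), LOX (5.69-fold higher, adjusted p = 0.00214), STC2 and IGFBP1. STC2, named after its values were seen, and IGFBP1 lost their calls without single libraries, IGFBP1 without parental replicate 1 or 3 or shYAPTAZ replicate 3 (adjusted p = 0.0541, 0.0566 and 0.0718) and STC2 without parental replicate 2 or 3 or shYAPTAZ replicate 3 (adjusted p = 0.123, 0.102 and 0.338). The count of 4 fell to 2 without parental replicate 3 or shYAPTAZ replicate 3.

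EPAS1, the gene of HIF2A (ENSG00000116016, chromosome 2, 46293667 to 46386697), was 267, 194 and 148 CPM in the parental libraries and 172, 109.8 and 58.6 CPM in the shYAPTAZ libraries, so the groups overlapped. Its log2 change was -0.85 ± 0.29 (SE, adjusted p = 0.0361), and it was not called when parental replicate 1 (adjusted p = 0.173) or replicate 2 (0.068), or shYAPTAZ replicate 2 (0.101) or replicate 3 (0.0957), was left out. ARNT2, a partner subunit, was 19.2, 18.3 and 6.5 against 0.908, 5.09 and 5.3 CPM, 3.64-fold lower (adjusted p = 0.00649). Of all 28 hypoxia targets, 11 were higher in shYAPTAZ than in shHIF2A and 2 lower, against 9.71% of all genes higher and 8.72% lower. Than in shJUNs 3 were higher and 2 lower, near the 7.87% and 8.27% of all genes. SLC2A1 was 215 ± 4.85 CPM in shHIF2A, below shYAPTAZ (adjusted p = 1.45e-06), and 428 ± 15 CPM in shJUNs, where the difference did not pass (adjusted p = 0.416). SCARB1 was the reverse, lower in shYAPTAZ than in shHIF2A (85.2 ± 12.5 CPM, adjusted p = 0.000211) and in shJUNs (129 ± 6.65 CPM, adjusted p = 8.32e-07). Glycolysis genes were mixed, with 4 of 18 lower and 3 higher. ENO2, the neuronal enolase and a HIF target, was 67, 38.2 and 42.4 against 12.3, 8.28 and 10.4 CPM, 4.79-fold lower (adjusted p = 1.36e-05), and ENO1 was 1.37-fold higher (adjusted p = 0.00566).

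**Figure D4:**
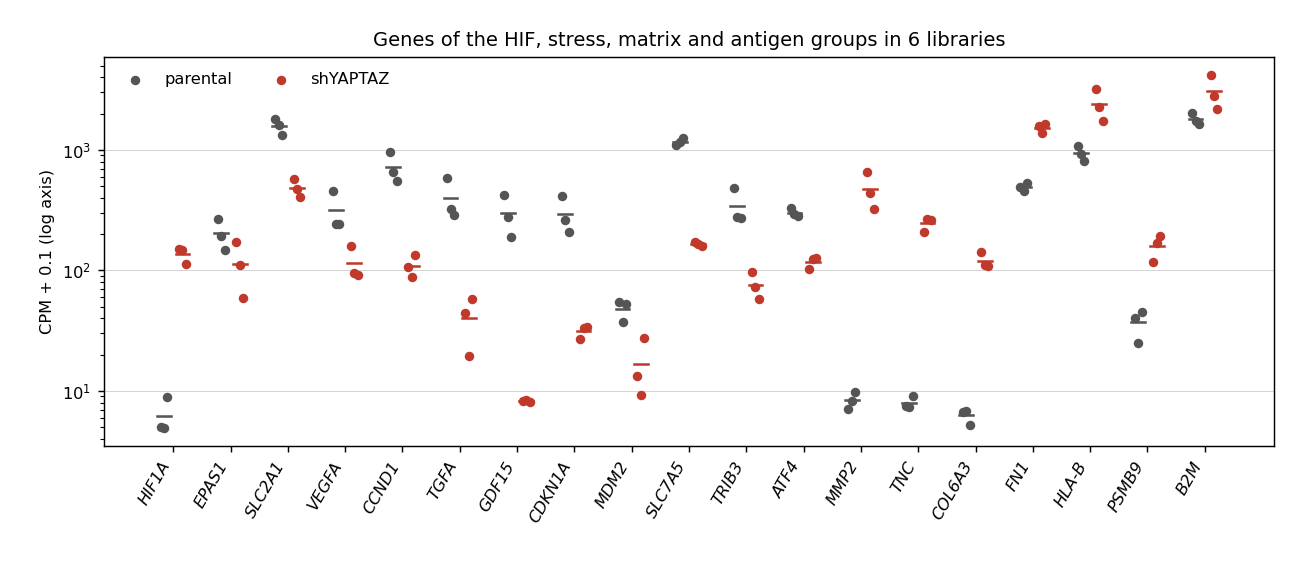
Points are CPM + 0.1 of single libraries on a log axis, 3 parental (grey) and 3 shYAPTAZ (red), with group means as lines. HIF1A, MMP2, TNC and COL6A3 are far higher and GDF15 and CDKN1A far lower in every shYAPTAZ library; VEGFA, MDM2, ATF4, FN1, HLA-B and B2M were added after their values were seen.

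GDF15, CDKN1A and PHLDA3 were lower in every shYAPTAZ library than in any parental one. GDF15, a stress-induced cytokine (ENSG00000130513, chromosome 19, 18374731 to 18389176), was 422, 280.0 and 188 CPM in the parental libraries and 8.17, 8.28 and 7.95 CPM in the shYAPTAZ libraries. The shYAPTAZ libraries nearly coincided, and GDF15 was 36.3-fold lower (log2 change -5.18 ± 0.30 SE, adjusted p = 2.86e-11). CDKN1A, the cell cycle inhibitor p21, was 416, 259.8 and 206 CPM in the parental libraries and 26.8, 33.1 and 33.7 CPM in the shYAPTAZ libraries, 9.34-fold lower (log2 change -3.22 ± 0.22 SE, adjusted p = 5.58e-10). PHLDA3, an inhibitor of AKT, was 197, 133 and 95.3 against 49.9, 37.3 and 41.9 CPM, 3.3-fold lower (adjusted p = 2.9e-06).

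GDF15 stood at 47.1 ± 8.1 CPM in shHIF2A and 55 ± 13.9 CPM in shJUNs, and CDKN1A at 169.9 ± 26.5 CPM in shHIF2A and 159 ± 7.98 CPM in shJUNs. All 4 direct differences passed (adjusted p between 5.15e-08 and 2.01e-06).

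Of 27 members of the unfolded protein and integrated stress list outside chromosomes 13 and 14, 18 were lower and 2 higher. The median log2 change of the 27 was -1.01, and of all genes there 12.3% were lower and 12.1% higher. SLC7A5, the leucine transporter LAT1, was 1089, 1174 and 1257 CPM in the parental libraries and 173, 165 and 160.0 CPM in the shYAPTAZ libraries, 7.08-fold lower (log2 change -2.82 ± 0.15 SE, adjusted p = 6.26e-12). Its partner chain SLC3A2 was 406, 469 and 448 against 129.8, 86.6 and 136 CPM, 3.75-fold lower (adjusted p = 3.87e-08). Both groups of libraries were tight and apart. TRIB3, a pseudokinase induced by ATF4, was 479, 279 and 272 against 96.2, 72.9 and 58.3 CPM, 4.55-fold lower (adjusted p = 1.11e-07). The 2 that rose were HSPA5, the endoplasmic reticulum chaperone BiP, and SDF2L1, 1.32-fold and 2.32-fold (adjusted p = 0.0126 and 0.00249). HSPA5 was no longer called when parental replicate 2 was left out (adjusted p = 0.0506), parental replicate 3 (0.0501) or shYAPTAZ replicate 2 (0.0617), and without shYAPTAZ replicate 3 the list held 4 rises. SLC7A5 was lower than in shHIF2A (369 ± 93.6 CPM, adjusted p = 4.34e-06) and shJUNs (579.7 ± 13.3 CPM, adjusted p = 7.5e-09), and 7 and 8 members of the list were lower than in those lines (8.72% and 8.27% of all genes). The list was also low in the other lines against parental cells. Of all 28 members tested, 17 were lower and 0 higher in shHIF2A, and 13 lower and 1 higher in shJUNs. Of all genes 8.8% and 8.93% were lower in those lines. ATF3 stands in the AP-1 family list as well.

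Of 26 extracellular matrix and mesenchymal genes outside chromosomes 13 and 14, 12 were higher, 2 lower and 12 did not pass. The median log2 change of the 26 was 0.70, and of all genes there 12.1% were higher and 12.3% lower. MMP2, a gelatinase (ENSG00000087245, chromosome 16, 55389700 to 55506691), was 6.98, 8.15 and 9.61 CPM in the parental libraries and 650.1, 442 and 321 CPM in the shYAPTAZ libraries, 56.4-fold higher (log2 change 5.82 ± 0.25 SE, adjusted p = 1.42e-13). TNC, tenascin C, was 7.33, 7.31 and 9.04 CPM in the parental libraries and 209, 269 and 263 CPM in the shYAPTAZ libraries, 31.1-fold higher (log2 change 4.96 ± 0.21 SE, adjusted p = 1e-13). COL6A3, a chain of collagen VI, was 6.63, 6.75 and 5.09 against 141, 111 and 108 CPM, 19.4-fold higher (adjusted p = 1.58e-09). In these genes the lowest shYAPTAZ library lay far above the highest parental one. MMP2 and COL6A3 were also higher than in shHIF2A (adjusted p = 2.84e-13 and 8.02e-09) and shJUNs (5.4e-10 and 4.9e-09), whereas TNC was 241 ± 16.9 CPM in shJUNs (adjusted p = 0.907). The 2 that fell were LOXL2, a collagen crosslinking enzyme (2.8-fold lower, adjusted p = 0.000529), and TGFBI, whose call ended without 4 single libraries (parental 1 and 2, shYAPTAZ 2 and 3, adjusted p of 0.0737 to 0.168). On chromosome 13, POSTN was higher and COL4A2 1.54-fold lower (adjusted p = 0.0112). Of all 30 matrix genes tested, 10 were higher and 4 lower in shHIF2A than in parental cells, and 9 higher and 4 lower in shJUNs. Of all genes 9.84% and 10.3% were higher in those lines. Compared directly, 13 of the 30 were higher in shYAPTAZ than in shHIF2A and 3 lower, and 9 were higher than in shJUNs and 3 lower.

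Fibroblast markers went both ways: of 7 tested, PDPN, ACTA2 and COL1A1 were higher and LUM and PDGFRB lower, and PDGFRA and DCN, which define fibroblasts, had 0 to 2 counts in each library. PDGFRB was not called without parental replicate 2, shYAPTAZ replicate 2 or shYAPTAZ replicate 3 (adjusted p = 0.0611, 0.0666 and 0.0568). The summed level of the fibroblast list was 57.9 to 64.5 CPM in parental and 165 to 283 CPM in shYAPTAZ libraries. The part of other cells in the matrix result was not tested. PDPN, podoplanin, was 0, 0.281 and 0 CPM in the parental libraries and 41.8, 31.8 and 41.2 CPM in the shYAPTAZ libraries, higher by a ratio of 381 (95% interval 67.9 to 15083, adjusted p = 5.78e-08), and was higher than in both other knockdown lines (adjusted p = 2.26e-06 and 9.55e-08). ACTA2, smooth muscle actin, was 25.5, 20.5 and 14.1 against 73.5, 149 and 192 CPM, 6.97-fold higher (adjusted p = 1.27e-06).

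Genes of the actin cytoskeleton, a class often driven by YAP and TAZ, were higher more often than lower. Of 32 outside chromosomes 13 and 14, 14 were higher and 4 lower (12.1% and 12.3% of all genes there). Their median log2 change was 0.44. Without shYAPTAZ replicate 3 the 14 became 8. MYL9, a myosin light chain, was 40.8, 67.2 and 66.1 against 159, 207 and 211 CPM, 3.3-fold higher (adjusted p = 4.66e-07). FLNC, filamin C, was 319, 283 and 235 CPM in the parental libraries and 54, 78.3 and 86.5 CPM in the shYAPTAZ libraries, 3.79-fold lower (adjusted p = 1.92e-08), and was lower than in shHIF2A and shJUNs (adjusted p = 1.46e-07 and 1.39e-07). PXN, paxillin, was 1.9-fold lower (adjusted p = 0.0025). On the 2 set-apart chromosomes, ACTN1 (chromosome 14) was 2.57-fold higher (adjusted p = 5.21e-07) and the formin DIAPH3 (chromosome 13) 3.13-fold lower (adjusted p = 4.24e-06). Parental replicate 1 was the lowest library for ACTB and MYL9. The other lines rose over parental cells as well. Of all 34 actin genes tested, 12 were higher and 5 lower in shHIF2A, and 17 higher and 2 lower in shJUNs. Of all genes 9.84% and 10.3% were higher in those lines, and 8.8% and 8.93% lower. Compared directly, 14 of the 34 actin genes were lower in shYAPTAZ than in shJUNs and 2 higher (8.27% and 7.87% of all genes). Of 12 integrins 5 were higher and 3 lower, with ITGAV 1.69-fold higher (adjusted p = 0.000559) and ITGB8 2.33-fold lower (adjusted p = 0.000265).

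Of 15 MHC class I and antigen processing genes, 10 were higher and 1 lower, with a median log2 change of 0.77. PSMB9, an immunoproteasome subunit, was 40.5, 24.7 and 45.5 CPM in the parental libraries and 117, 170.3 and 194 CPM in the shYAPTAZ libraries, 4.37-fold higher (log2 change 2.13 ± 0.23 SE, adjusted p = 5.15e-07). PSMB8 was 96.7, 99 and 80.8 against 224, 237 and 206 CPM, 2.41-fold higher (adjusted p = 1.42e-06), and HLA-C 558, 531 and 472 against 1571, 1151 and 881 CPM, 2.31-fold higher (adjusted p = 7.88e-06). The groups were apart in all 3. Of the 15, 10 lie on chromosome 6, where 21.6% of 629 genes were higher, 6.52% were lower and the median log2 change was 0.30. HLA genes are near-identical in parts, so reads may have been split between them, and their single values are uncertain. Against shHIF2A 9 of the 15 were higher and against shJUNs 4, with 9.71% and 7.87% of all genes. TAPBP was the 1 that fell (1.35-fold lower, adjusted p = 0.0428), and that call ended in 12 of 22 alternatives.

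Interferon-stimulated genes were mixed, with 5 of 22 outside chromosomes 13 and 14 higher and 2 lower, against 12.1% and 12.3% of all genes there. IFI44L was higher by a ratio of 153 (95% interval 51.9 to 744, adjusted p = 6.38e-10) and IFITM3 2.58-fold higher (adjusted p = 0.00723). XAF1 was 13.6, 18 and 19.5 against 0.454, 1.27 and 0.241 CPM, 25.3-fold lower (adjusted p = 1.2e-06), with a log2 change of -5.60 without shYAPTAZ replicate 2, and BST2, tetherin, 2.47-fold lower (adjusted p = 1.7e-05). Of 22 NF-kB and cytokine genes outside the 2 chromosomes 3 were higher and 2 lower, and those counts were 0 to 6 and 1 to 6 with single libraries left out (0 higher without parental replicate 1, 6 higher without shYAPTAZ replicate 1 and 6 lower without shYAPTAZ replicate 3). ICAM1, an adhesion receptor, was the steady one, at 199, 148 and 133 against 74.5, 47.1 and 66.7 CPM, 2.56-fold lower (adjusted p = 2e-05).

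Of 11 AP-1 family genes outside chromosomes 13 and 14, 6 were lower, none was higher and 5 did not pass. Their median log2 change was -0.93, and of all genes there 12.3% were lower. Against the same parental libraries, 7 of all 13 family genes tested were lower in shHIF2A and 7 in shJUNs, with 0 higher. Of all genes 8.8% and 8.93% were lower in those lines. Of the 3 JUN genes JUND fell, at 310.3, 390.3 and 366 CPM in the parental libraries and 172, 173 and 165 CPM in the shYAPTAZ libraries, 2.09-fold lower (log2 change -1.06 ± 0.16 SE, adjusted p = 2.71e-05), without overlap. JUN (137, 172 and 149.5 against 108, 180.2 and 175 CPM, adjusted p = 0.951) and JUNB (97, 213 and 266 against 213, 175 and 202 CPM, adjusted p = 0.942), named after their values were seen, did not pass. ATF3 was 36.3, 24.2 and 33.6 against 0.908, 7.32 and 5.78 CPM, 6.35-fold lower (adjusted p = 0.000101). Among 24 AP-1 targets 7 were higher and 2 lower, and the 7 became 3 without parental replicate 2 and 4 without parental replicate 3 or shYAPTAZ replicate 2, while the 2 became 4 without shYAPTAZ replicate 3. MMP13, a collagenase, was 6.63, 17.2 and 11.6 against 101, 82.5 and 50.6 CPM, 6.49-fold higher (adjusted p = 1.23e-06), while DUSP1, a phosphatase of MAP kinases, was 451, 475 and 339.7 against 55.8, 65.3 and 112 CPM, 5.37-fold lower (adjusted p = 1.81e-08).

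Cell cycle genes are given beside all genes tested outside chromosomes 13 and 14, of which 12.3% were lower and 12.1% higher. Of 34 replication genes outside chromosomes 13 and 14, 2 were higher, a count of 1 in 12 of the 22 alternatives, and 4 were lower without shYAPTAZ replicate 3. Of 35 mitotic genes 5 were lower, near the share of all genes, and 1 higher. The 1 rise was lost without parental replicate 2 or 3 or shYAPTAZ replicate 2 or 3. The 5 became 2 without parental replicate 2, shYAPTAZ replicate 1 or shYAPTAZ replicate 2, and 1 without parental replicate 3. TOP2A, topoisomerase II, was 529, 534 and 612 against 345, 404 and 369.9 CPM, 1.5-fold lower (adjusted p = 0.00959). In the direct comparisons 10 of the 35 mitotic genes were higher in shYAPTAZ than in shHIF2A and 9 than in shJUNs. Of all genes 9.71% and 7.87% were. Against the same parental libraries, 17 mitotic genes were lower in shHIF2A and 13 in shJUNs, where 8.8% and 8.93% of all genes were.

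Mitochondrial and ribosomal transcripts shifted in both directions. Of 13 transcripts of the mitochondrial genome 7 were lower and 1 higher, with a median log2 change of -0.37, while the share of all counts from that genome overlapped between the groups (6.91% to 7.64% against 6.54% to 8.40%). MT-ND2 was 2093, 2049.9 and 1940.1 against 1110.4, 1281 and 1404 CPM, 1.6-fold lower (adjusted p = 7.12e-05), and MT-CO1, the 1 that rose, was 627, 786 and 809 against 1497, 1204 and 1447 CPM, 1.87-fold higher (adjusted p = 7.07e-06). Of 49 nuclear oxidative phosphorylation genes outside chromosomes 13 and 14, 11 were higher and 2 lower (12.1% and 12.3% of all genes there). Of all 50 tested, 19 were higher in shHIF2A and 12 in shJUNs than in parental cells (9.84% and 10.3% of all genes), and 0 were lower. Compared directly, 8 of the 50 were lower in shYAPTAZ than in shHIF2A and 2 higher (8.72% and 9.71% of all genes). The 11 became 5 without parental replicate 1, 6 without parental replicate 2 and 7 without shYAPTAZ replicate 3. Of 52 ribosomal protein genes 16 were lower and 3 higher, and the 16 became 9 without shYAPTAZ replicate 3 and 7 when only the 6 libraries of this comparison were fitted. RPL38 was 816, 846 and 809 against 579, 598 and 587 CPM, 1.4-fold lower (adjusted p = 0.00103).

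Epithelial, renal and neural markers changed gene by gene. CLDN4, a tight junction claudin, was 85.9, 101 and 109 CPM in the parental libraries and 9.99, 6.37 and 5.06 CPM in the shYAPTAZ libraries, 14.4-fold lower (log2 change -3.84 ± 0.24 SE, adjusted p = 1.25e-10), and was also lower than in shHIF2A and shJUNs (adjusted p = 7.83e-10 and 1.68e-10). KRT19, a simple epithelial keratin, was 8.38, 8.72 and 6.5 against 67.2, 86.6 and 53.7 CPM, 8.76-fold higher (adjusted p = 1.19e-09), with 305 ± 32.7 CPM in shJUNs. Of 13 renal lineage and tubule markers tested 3 were higher, 1 was lower and 9 did not pass. Of all genes outside chromosomes 13 and 14, 12.1% were higher and 12.3% lower. Without shYAPTAZ replicate 3 the renal counts were 5 and 2. CDH6, a cadherin of the kidney, was 78.2, 68 and 80.6 against 583, 400.2 and 212 CPM, 5.25-fold higher (adjusted p = 0.000636). ANPEP, an aminopeptidase of the proximal tubule, was 16.1, 22.5 and 15.5 against 79, 103 and 64.8 CPM, 4.53-fold higher (adjusted p = 9.18e-07). The 1 that fell was CA12, a carbonic anhydrase, at 395, 269 and 185 against 75.4, 72.3 and 186 CPM, 2.52-fold lower (adjusted p = 0.00927), with overlap between the groups. Of 4 neural markers tested, 3 were higher in shHIF2A and 2 in shJUNs than in parental cells (9.84% and 10.3% of all genes). In shYAPTAZ 3 were higher (13% of all genes), NEFL, SNAP25 and MAP2. MAP2 lost its call in 6 of 20 alternatives that tested it, 4 of them without a single library (parental 1 or 3, shYAPTAZ 2 or 3). SNAP25 was 0, 1.12 and 0 against 36.3, 22.3 and 11.8 CPM, with 4 counts in parental replicate 2 and none in the other two, so its log2 change of 5.75 was 9.34 without that library, and the other neurofilament gene NEFM had no count in any of the 6 libraries.

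**Figure D5:**
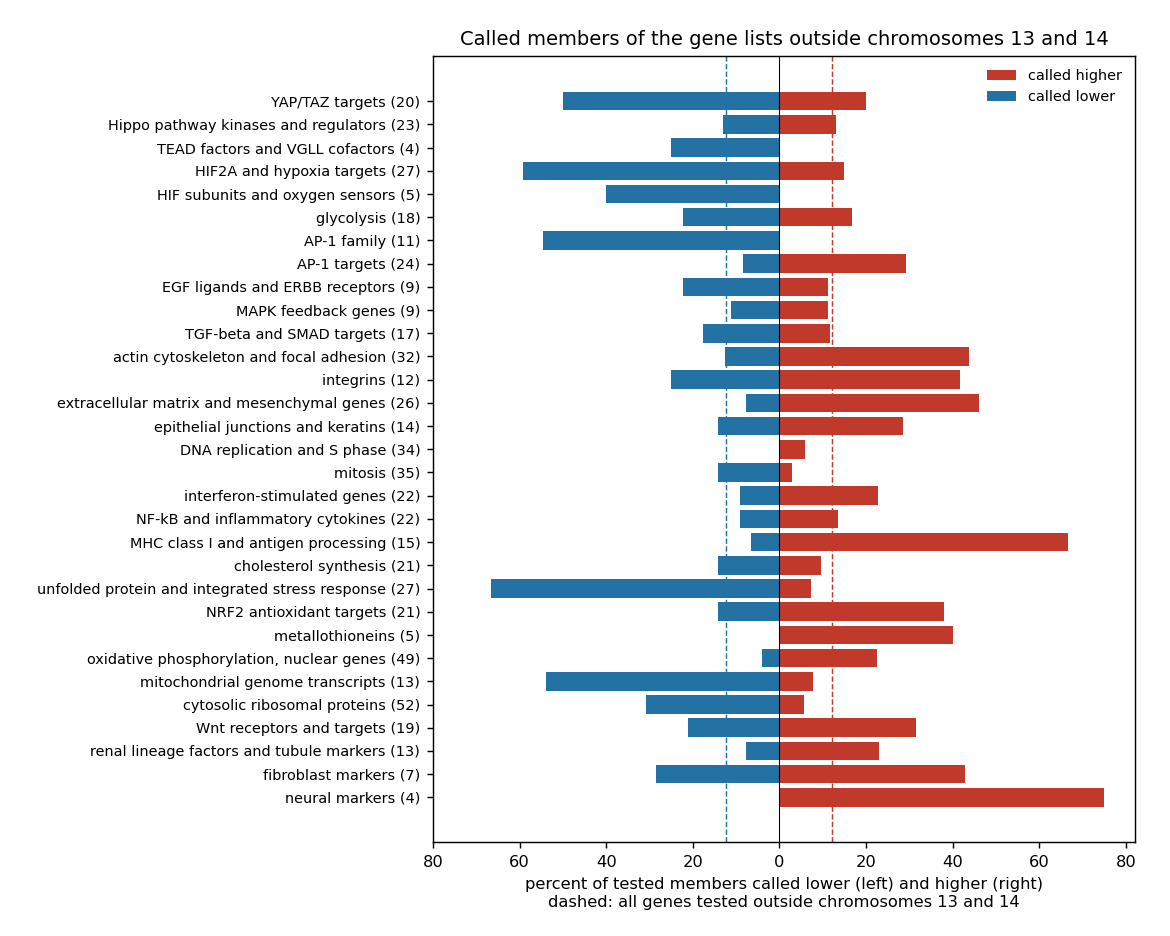
Bars give, for each gene list shown, with the number of members tested outside chromosomes 13 and 14 in brackets, the percent called lower (blue, left) and higher (red, right) in shYAPTAZ; dashed lines mark 12.3% and 12.1%, the shares over all genes tested there. On the left, the stress response, HIF2A target, AP-1 family, mitochondrial genome and YAP/TAZ target lists are among those well past the dashed line. On the right, the bars of neural markers, with 4 tested, and MHC class I reach furthest.

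Set directly against the other lines, shYAPTAZ differed from shHIF2A in 2268 genes (18.4%) and from shJUNs in 1985 (16.1%). The latter count was 1310 without shJUNs replicate 1 and 1299 without shJUNs replicate 3. In 341 genes (2.77%) shYAPTAZ was higher than parental cells, shHIF2A and shJUNs, and in 376 (3.06%) lower than all 3. Of these, 285 (2.44%) and 348 (2.98%) lay outside chromosomes 13 and 14. Chromosome 14 held 53 of the higher genes, 12.8% of its genes tested, and chromosome 13 held 24 of the lower ones, 11% of its genes.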

How the data were processed

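RNA of 12 libraries, 3 for each of 4 lines, was measured by BRB-seq. The authors deposited raw counts per gene, a whole number for each library; the submitters' processing notes name Trim Galore, STAR and hg38, with no versions. For the program that made the counts, any collapsing of duplicate molecules, the use of strand and the annotation release, the sources used give nothing. Without strand, a gene and an antisense partner cannot be told apart. The deposited table held 62702 readable genes, of which 78 carried no symbol, and 1 gene broken over 3 lines was left out.

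Differences were tested in R 4.3.3 with edgeR 4.0.16 (quasi-likelihood F test, robust, TMM scaling, edgeR's filter on low counts by group) in a single fit over the 12 libraries with a mean per group, and p-values were adjusted by Benjamini-Hochberg over the 12301 genes tested. A gene was called at an adjusted p under 0.05. The dispersion shared by all genes, 0.0628, amounts to 25.1% variation between replicates. Folds and log2 changes are fitted values, and mean ± SD is over 3 libraries. DESeq2 1.42.0 and limma 3.58.1 served as alternatives, and the fit was tested on simulated data. Python 3.11.15 with pandas 2.3.3 and scipy 1.17.1 did the rest. The gene lists, and the shYAPTAZ against parental comparison itself, were chosen with earlier results of these data known.

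Genes were named by rule: the silenced genes, the TEADs and EPAS1; the 8 largest rises and 8 largest falls outside chromosomes 13 and 14 and the 4 of each on them, among called genes with at least 10 CPM in the higher group and no overlap; the 5 of each by CPM; up to 3 called members of each list in each direction (6 for YAP/TAZ targets) with the smallest p; and the 4 of each among genes apart from all 3 other groups. Some genes and a list that the rule covers are not reported here. Others are marked as chosen after their values were seen.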

Additional observations from a re-analysis of the deposited data

How the results depend on the processing

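Each result was recomputed under 22 alternatives, of which 12 left out a library. Of the 178 genes named by rule, 34 lost their call in at least 1 of them, and 0 of 3837 values of those other than YAP1 and WWTR1 changed sign. Genes higher on chromosome 13 numbered 10, and 6 both with the 6 libraries only and with a filter at 10 CPM. The median log2 change of chromosome 13 was -0.38 without a filter and -0.66 to -0.53 with single libraries left out, and that of chromosome 14 was 0.70 and 0.81 to 0.93. Genes differing from shJUNs numbered 1299 to 2199 with single libraries left out. Of genes that were not called, the log2 change of JUN ran from -0.10 to 0.22 in those fits, that of JUNB from -0.29 to 0.34 and that of PTPN14 from -0.206 to 0.0894. With single libraries left out, 1090 to 1459 genes were higher and 1102 to 1481 lower outside chromosomes 13 and 14. Whether the replicate numbers pair the libraries was not settled, and the main fit left them out. Deviations of same-numbered libraries correlated at 0.101, -0.00955 and 0.11, and those of differently numbered ones at -0.117 to 0.0197. Parental replicate 2 correlated best with shYAPTAZ replicate 3. With a replicate block, 1583 genes were higher and 1634 lower outside chromosomes 13 and 14, more than the 1408 and 1433 of the main fit. YAP1 then changed by -2.28 and WWTR1 by -1.02. With the 6 libraries only, the higher calls fell from 7 to 4 of AP-1 targets, from 11 to 5 of oxidative phosphorylation genes, from 8 to 5 of NRF2 targets, from 3 to 1 of Hippo and of glycolysis genes, and from 4 to 2 of HIF2A targets. The all-gene median stayed between -0.01 and 0.03 under the 22 alternatives. Depth limits genes near 3 counts, and the spread covers these libraries alone.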

Other observations

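Genes of antioxidant defence driven by NRF2 moved in both directions, 8 of 21 higher and 3 lower. NQO1, a quinone reductase, was 242, 327 and 339 against 522, 530.4 and 768 CPM, 2.01-fold higher (adjusted p = 8.03e-05), and AKR1C3, an aldo-keto reductase, was 27.9, 16.3 and 19.2 against 83.5, 76.1 and 54.9 CPM, 3.38-fold higher (adjusted p = 9.71e-05). SLC7A11, the cystine transporter, was 96.3, 154 and 158 against 23.2, 49.99 and 70.6 CPM, 2.79-fold lower (adjusted p = 0.00112), and TXNRD1, thioredoxin reductase, was 1.78-fold lower (adjusted p = 0.00168). The metallothionein MT1X was 14.3, 19.1 and 17.5 against 36.8, 58.6 and 49.2 CPM, 2.83-fold higher (adjusted p = 0.000571), and 2 of 5 metallothioneins tested were higher (12.1% of all genes outside chromosomes 13 and 14). Metallothionein genes lie on chromosome 16, where 20.8% of 533 genes were higher, 4.88% were lower and the median log2 change was 0.33. Against parental cells, 3 of the 5 were higher in shHIF2A, and 0 were higher and 1 lower in shJUNs.

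Of 19 Wnt receptors and targets 6 were higher and 4 lower (12.1% and 12.3% of all genes outside chromosomes 13 and 14). LGR4, a receptor for R-spondins, was 15, 10.4 and 11 against 71.3, 46.2 and 30.8 CPM, 4.04-fold higher (adjusted p = 0.000178), and TCF7, a DNA-binding partner of beta-catenin, was 1.4, 3.94 and 3.11 against 15, 15.3 and 23.9 CPM, 6.28-fold higher (adjusted p = 0.000206). DKK3, a secreted member of the Dickkopf family, was 105, 72 and 50.9 against 241, 177 and 175 CPM, 2.6-fold higher (adjusted p = 4.99e-05). The 4 lower calls became 2 without parental replicate 1, shYAPTAZ replicate 2 or shYAPTAZ replicate 3, and 1 without parental replicate 3.

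Among stretches of 10 Mb with at least 20 genes tested outside chromosomes 13 and 14, the median log2 change was 1.13 on chromosome 19 from 20 to 30 Mb (14 of 33 genes higher, 1 lower), 0.79 on chromosome X from 70 to 80 Mb (17 of 33 higher, 0 lower) and 0.70 on chromosome 4 from 80 to 90 Mb (15 of 39 higher, 1 lower). Longer stretches, with boundaries chosen after their values were seen, also held medians away from 0. On chromosome 17 the median log2 change was 0.31 over 184 genes below 20 Mb and -0.32 over 550 genes above it. On chromosome 20 it was 0.23 below 30 Mb and -0.33 above, and on chromosome 3 it was 0.27 below 120 Mb and -0.10 above. Some medians were similar in shYAPTAZ and shJUNs, both against parental cells. They were -0.35 and -0.29 on chromosome 1 above 200 Mb and -0.36 and -0.38 on chromosome 15 above 50 Mb. On chromosome 16 they were 0.33 and 0.34, and on chromosome 22 0.27 and 0.31. Chromosome 17 had medians of -0.10 below 20 Mb and 0.14 above it in shJUNs, and chromosome 20 of -0.03 below 30 Mb and -0.04 above.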
